A study of Homo sapiens with 8 samples.

Results

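Fatty acid synthesis and desaturation were followed through 10 genes, ACLY, ACACA, FASN, SCD, ELOVL5, ELOVL6, FADS1, FADS2, SREBF1 and ACSL3, chosen by name for their place in the pathway. All 10 were found among the 58735 genes of the deposited table. The libraries came from the human prostate cancer line PC3, an established cell line, with 4 libraries labelled siCtrl (genotype given as WT) and 4 labelled siPRMT7 (genotype given as PRMT7 knockdown). All cells received synthetic RNA by lipofection, and in both groups culture went on for 48 h before total RNA was taken and poly(A) RNA sequenced. PRMT7 is an arginine methyltransferase, and the series concerns its part in the cell cycle and in prostate cancer. The library names of the same samples begin with sh instead of si. Separate cultures are not named for the replicates, so each p-value measures only the spread between these libraries, which may be technical.

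Cells make fatty acids from citrate that leaves the mitochondrion. ATP citrate lyase (ACLY) turns citrate into acetyl-CoA, acetyl-CoA carboxylase alpha (ACACA) makes malonyl-CoA from it, and fatty acid synthase (FASN) builds palmitate from both. Elongases of the ELOVL family lengthen the chains, stearoyl-CoA desaturase (SCD) puts the first double bond into saturated chains, and FADS2 and FADS1 act in turn on polyunsaturated chains. ACSL3 attaches coenzyme A to long chains, and SREBF1 encodes the transcription factor SREBP-1, which activates many of these genes. Prostate cancer is known for high fatty acid synthesis.

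Promoter stretches are shown for 5 members that the results below single out. SREBF1 alone among the members separated the groups on the deposited FPKM scale. The ratio of FADS2 to FADS1 separated them, and ACLY and SCD were among the 6 members lowest in siPRMT7 replicate 2. No link between these stretches and the levels was tested. They come from RefSeq (GRCh38.p14), run 5′ to 3′ on the strand of the gene, lie within the 250 bases before its start and leave out bases that GENCODE release 29 annotates as exon. Capitals mark the CCAAT box (CCAAT) and the GC box (GGGCGG), on either strand. They are chr17:17837003-17837236 (minus strand) for SREBF1, chr11:61816154-61816255 (plus) for FADS2, chr11:61817198-61817253 (minus) for FADS1, chr17:41919023-41919272 (minus) for ACLY and chr10:100346983-100347123 (plus) for SCD.
SREBF1: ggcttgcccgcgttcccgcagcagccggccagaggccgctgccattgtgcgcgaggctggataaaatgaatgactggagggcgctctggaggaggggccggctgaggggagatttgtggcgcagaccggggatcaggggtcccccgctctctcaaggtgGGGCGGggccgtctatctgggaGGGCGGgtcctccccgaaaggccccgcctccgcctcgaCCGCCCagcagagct
FADS2: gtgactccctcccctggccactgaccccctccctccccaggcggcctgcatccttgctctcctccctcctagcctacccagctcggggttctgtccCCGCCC
FADS1: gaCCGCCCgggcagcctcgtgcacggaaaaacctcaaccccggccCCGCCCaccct
ACLY: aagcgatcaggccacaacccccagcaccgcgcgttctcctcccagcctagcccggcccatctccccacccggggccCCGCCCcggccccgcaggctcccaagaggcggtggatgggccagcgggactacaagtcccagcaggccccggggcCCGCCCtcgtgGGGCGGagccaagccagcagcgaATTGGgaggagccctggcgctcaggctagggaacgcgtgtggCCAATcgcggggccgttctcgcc
SCD: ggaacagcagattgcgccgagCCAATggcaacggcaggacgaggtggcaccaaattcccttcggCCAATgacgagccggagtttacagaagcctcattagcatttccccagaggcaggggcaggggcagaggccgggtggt
RefSeq held 13 start windows for 9 of the 10 members, all but FASN. The FADS2 window not shown held neither box, and the full SCD window also held 2 GC boxes within annotated exon. In full windows of 250 bases, the CCAAT box was found in 7 of 13 (53.8%), against 32.0% of all 35116 RefSeq windows. The GC box was found in 10 of 13 (76.9%), against 42.6% of all. A sterol element, TCACNCCAC, was in 0 of 13, against 0.883% of all windows. The E-box CACGTG was in 1 of 13, that of ELOVL5, against 6.34% of all. Several windows of ACLY, ACACA and FADS2 overlap or belong to the same gene, so the 13 are not independent, and these letters are matches and not known sites.

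Libraries held 14526030 to 15724862 fragments, rebuilt from FPKM (fragments scaled by gene length and library size). PRMT7 (ENSG00000132600, chromosome 16, 68310974 to 68358563) had 5.25, 4.86, 5.10 and 5.25 FPKM in siCtrl replicates 1 to 4 and 4.62, 4.31, 5.01 and 4.82 FPKM in siPRMT7 replicates 1 to 4. The mean differed by -8.29% in the siPRMT7 libraries, which did not pass the two-sided exact permutation test (p = 0.0571, n = 4 per group, smallest possible p = 0.0286). With every library brought to the same FPKM total, the difference was -0.557 in place of -0.424 FPKM and the exact permutation p was 0.0286. In the deposited FPKM values PRMT7 lay below every siCtrl library in 3 of the 4 siPRMT7 libraries, and with equal totals in all 4. Of the 9458 exonic bases of PRMT7, 239 are shared with SMPD3 on the opposite strand. The library of siPRMT7 replicate 2 stood apart, at 28.4 on the first principal component (31.4% of the variance), with the other 7 between -11.9 and 7.36. Results that rest on it are given with and without it. The epithelial keratins KRT8 and KRT18 and vimentin (VIM) were at 48.97 to 155 FPKM in every library, and KLK3 and KLK2 were at 0 in all 8. Of the other epithelial markers EPCAM had 6.87 to 8.06 FPKM, and CDH1 (E-cadherin) had 0.310 to 0.573 FPKM, under the filter. Summed levels of the 6 leukocyte markers ranged from 1.06 to 1.54 FPKM (siCtrl) and 1.28 to 1.72 FPKM (siPRMT7), and of the 6 adipocyte markers 4.68 to 7.64 and 5.05 to 7.62 FPKM, most of it FABP4, with ADIPOQ and LEP at 0 in all 8. The 6 fibroblast markers summed to 8.32 to 9.79 (siCtrl) and 8.54 to 9.99 FPKM (siPRMT7), most of it COL1A1, and the 4 endothelial markers to 3.96 to 4.23 and 3.59 to 4.27 FPKM.

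PC3 cells transcribed 9 of the 10 genes above 1 FPKM, and no member passed the test between the groups. On the FPKM scale, which allows for gene length, the mean siCtrl levels were 46.9 for ELOVL5, 44.2 for SCD, 41.1 for FASN, 36.7 for FADS2 and 36.4 for ACLY, each at or above the 91.3 percentile of the 13436 genes tested. Below them came ACSL3 at 26.8, FADS1 at 16.01, SREBF1 at 9.09, ACACA at 4.49 and ELOVL6 at 0.484. Neighbours in this order overlapped in the siCtrl libraries for 2 pairs, ELOVL5 with SCD and FADS2 with ACLY. FADS2 exceeded ACLY in 2 of 4 siCtrl libraries and in 4 of 4 siPRMT7 libraries.

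Genes with at least 1 FPKM in at least 4 libraries were tested with limma on log2(FPKM + 1), and an adjusted p is Benjamini-Hochberg over all 13436. Over all genes 0.0149% passed an adjusted p of 0.05, and of the 9 members tested 0 passed. At an unadjusted p under 0.05 there was 1 member of 9 (11.1%), SREBF1, against 13.2% of all genes tested in either direction and 7.67% in the higher direction, and with limma's voom on rebuilt fragments there were 0. The median log2 fold change of the 9 was -0.02, with 4 positive and 5 negative, against -0.00154 for all genes tested. Without siPRMT7 replicate 2 that median was 0.06, against -0.00106 for all genes, and 0 members passed. Unadjusted p was then under 0.05 for 2 members, FADS2 and SREBF1, both higher, against 7.05% of all genes in that direction. Between groups that did not overlap there was 1 member of 9 (8.57% of all genes tested in either direction). Without siPRMT7 replicate 2 there were 2, FADS2 and SREBF1, against 5.97% of all genes higher and 6.56% lower.

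**Figure D1:**
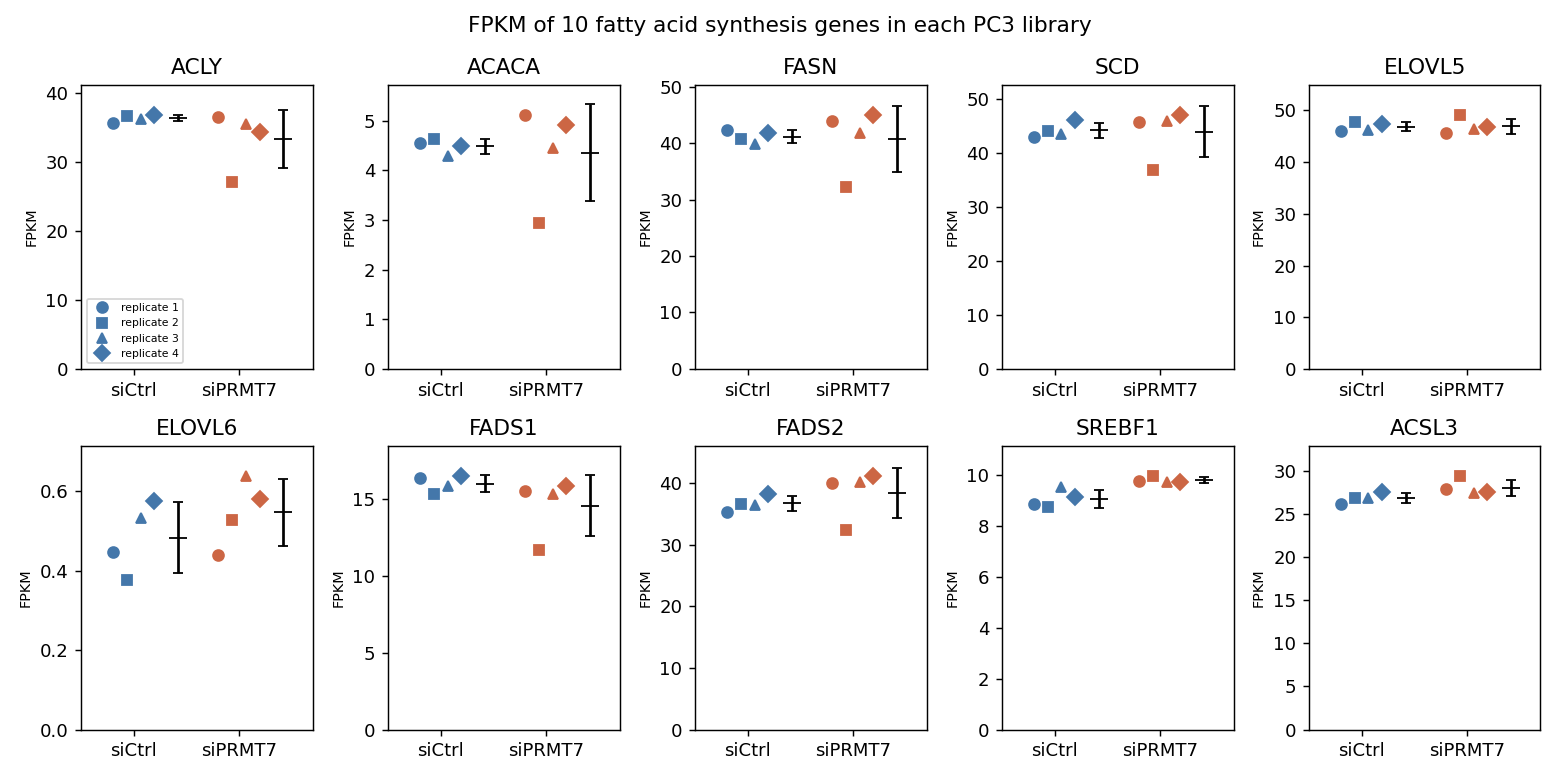
FPKM (vertical axes, from 0) of the 10 members in siCtrl (blue) and siPRMT7 (orange) libraries, with marker shapes for replicate numbers and black bars for mean and SD of 4 libraries. The orange square, siPRMT7 replicate 2, is lowest of all 8 libraries for ACLY, ACACA, FASN, SCD, FADS1 and FADS2, and SREBF1 is higher in all 4 siPRMT7 libraries.

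With all 8 libraries, the enzymes that make palmitate differed between groups by less than the spread (SD) within the siPRMT7 group. Without siPRMT7 replicate 2 that did not hold for FASN, at 43.6 ± 1.56 FPKM (SD) against 41.1 in siCtrl. ACLY (ENSG00000131473, chromosome 17, 41866908 to 41930542, minus strand) had 35.8, 36.8, 36.4 and 36.8 FPKM in siCtrl replicates 1 to 4 and 36.5, 27.2, 35.5 and 34.5 FPKM in siPRMT7 replicates 1 to 4. In 3 of the 4 siPRMT7 libraries it lay below every siCtrl library, but siPRMT7 replicate 1 lay among them. The mean differed by -8.26% (36.4 ± 0.489 against 33.4 ± 4.24 FPKM, SD, n = 4 each), a log2 fold change of -0.13 (95% interval -0.32 to 0.06, limma adjusted p = 0.509). Without siPRMT7 replicate 2 the mean differed by -2.56% and the log2 fold change -0.04 (limma adjusted p = 0.676).

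ACACA (ENSG00000278540, chromosome 17, 37084988 to 37406818, minus strand), whose product makes malonyl-CoA, had 4.54, 4.62, 4.28 and 4.50 FPKM in siCtrl and 5.11, 2.95, 4.45 and 4.92 FPKM in siPRMT7 replicates 1 to 4. Replicate 2 was lowest of the 8 libraries, replicates 1 and 4 were above every siCtrl library, and replicate 3 was among them. The log2 fold change was -0.05 (95% interval -0.34 to 0.23, limma adjusted p = 0.862), and 0.09 (-0.04 to 0.21, limma adjusted p = 0.560) without siPRMT7 replicate 2. Its 576 to 1033 fragments per library carry a counting error of 4.17% at the lowest.

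FASN (ENSG00000169710, chromosome 17, 82078333 to 82098332, minus strand), the palmitate synthase, had 42.3, 40.7, 39.8 and 41.8 FPKM in siCtrl and 43.9, 32.2, 41.9 and 44.9 FPKM in siPRMT7 replicates 1 to 4. Its pattern was that of ACACA, with replicates 1 and 4 above and replicate 2 below all siCtrl libraries. The log2 fold change was -0.03 (95% interval -0.24 to 0.19, limma adjusted p = 0.918). Without siPRMT7 replicate 2 it was 0.08 (95% interval -0.00479 to 0.17, limma adjusted p = 0.415), so 1 library set the direction of both ACACA and FASN.

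Of the desaturases, FADS2 was higher in 3 of the 4 siPRMT7 libraries and FADS1 was not. FADS2 (ENSG00000134824, chromosome 11, 61792980 to 61867354, plus strand), the delta-6 desaturase, had 35.4, 36.7, 36.5 and 38.3 FPKM in siCtrl and 40.02, 32.4, 40.1 and 41.2 FPKM in siPRMT7 replicates 1 to 4. Replicates 1, 3 and 4 lay above every siCtrl library and replicate 2 below every one. The log2 fold change was 0.06 (95% interval -0.11 to 0.22, limma adjusted p = 0.728). Without siPRMT7 replicate 2 the mean was 10.1% higher and the log2 fold change 0.14 (95% interval 0.06 to 0.22), with an unadjusted p of 0.0044 and an adjusted p of 0.197 in limma, still short of the threshold.

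FADS1 (ENSG00000149485, chromosome 11, 61799625 to 61829318, minus strand), the delta-5 desaturase next to FADS2, had 16.4, 15.3, 15.8 and 16.5 FPKM in siCtrl and 15.5, 11.7, 15.3 and 15.9 FPKM in siPRMT7 replicates 1 to 4. Replicates 1, 3 and 4 lay within the range of siCtrl, and replicate 2 was lowest. The log2 fold change was -0.13 (95% interval -0.33 to 0.06, limma adjusted p = 0.512), and -0.04 (limma adjusted p = 0.716) without siPRMT7 replicate 2. FADS1 and FADS2 overlap on opposite strands and share 490 exonic bases, 4.79% of FADS1 and 4.44% of FADS2. Strand use in counting is not given in the sources used, so fragments within these bases could belong to either gene.

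SCD (ENSG00000099194, chromosome 10, 100347124 to 100364834, plus strand), the delta-9 desaturase, had 42.9, 44.1, 43.5 and 46.2 FPKM in siCtrl and 45.7, 36.9, 45.95 and 46.9 FPKM in siPRMT7 replicates 1 to 4. Replicate 2 was below and replicate 4 above every siCtrl library, and replicates 1 and 3 lay between the highest siCtrl library and the other 3. The log2 fold change was -0.02 (95% interval -0.18 to 0.15, limma adjusted p = 0.939), and 0.06 (-0.01 to 0.14, limma adjusted p = 0.476) without replicate 2.

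The 2 elongases lay at opposite ends of the levels, ELOVL5 highest and ELOVL6 lowest of the 10 members. ELOVL5 (ENSG00000012660, chromosome 6, 53267398 to 53349179, minus strand), which lengthens polyunsaturated chains, had 46.1, 47.7, 46.2 and 47.5 FPKM in siCtrl and 45.6, 49.04, 46.4 and 46.7 FPKM in siPRMT7 replicates 1 to 4. The groups overlapped, and the log2 fold change was 0.00196 (95% interval -0.08 to 0.09, limma adjusted p = 0.987). ELOVL6 (ENSG00000170522, chromosome 4, 110045846 to 110199199, minus strand), which lengthens palmitate to stearate, had 0.449, 0.377, 0.534 and 0.576 FPKM in siCtrl and 0.441, 0.529, 0.639 and 0.582 FPKM in siPRMT7 replicates 1 to 4. It was under the filter and was not tested with the rest. Its 44 to 70 fragments per library carry a counting error of 15.1% at the lowest, and the spread within groups was 18.4% and 15.4% of the mean. The means differed by 13.2% and the groups overlapped (log2 fold change 0.06 with no filter, limma adjusted p = 0.814).

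On the deposited FPKM scale SREBF1 was the 1 member whose groups did not overlap. SREBF1 (ENSG00000072310, chromosome 17, 17810399 to 17837002, minus strand) had 8.89, 8.75, 9.54 and 9.16 FPKM in siCtrl and 9.79, 9.97, 9.73 and 9.74 FPKM in siPRMT7 replicates 1 to 4. Each of the siPRMT7 values exceeded the highest siCtrl value, replicate 2 included, and groups did not overlap in this direction for 4.14% of all genes tested. The mean was 7.96% higher (9.09 ± 0.346 against 9.81 ± 0.113 FPKM, SD, n = 4 each), with a log2 fold change of 0.10 (95% interval 0.01 to 0.19). The unadjusted p was 0.0362 and the adjusted p 0.351 in limma, so the call did not pass. Its log2 fold change was 0.09 (limma adjusted p = 0.381) without siPRMT7 replicate 2, and 0.06 (limma unadjusted p = 0.177) with libraries brought to the same FPKM total. With equal totals siPRMT7 replicate 2 (deposited FPKM total 278486) fell below siCtrl replicate 3 (261499), so the groups overlapped. Of the 8030 exonic bases of SREBF1, 556 (6.92%) are shared with RAI1 on the opposite strand, which ranged from 5.83 to 6.93 FPKM in siCtrl and from 4.85 to 7.20 in siPRMT7 libraries. Gene totals do not separate the SREBP-1a and SREBP-1c transcripts.

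ACSL3 (ENSG00000123983, chromosome 2, 222860934 to 222944639, plus strand), a long-chain acyl-CoA synthetase of the endoplasmic reticulum and lipid droplets, had 26.1, 26.8, 26.8 and 27.5 FPKM in siCtrl and 27.9, 29.4, 27.4 and 27.5 FPKM in siPRMT7 replicates 1 to 4. The siPRMT7 libraries began inside the siCtrl range and 2 exceeded it. The log2 fold change was 0.06 (95% interval -0.03 to 0.15, limma adjusted p = 0.509), and 0.04 (limma adjusted p = 0.655) without siPRMT7 replicate 2.

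**Figure D2:**
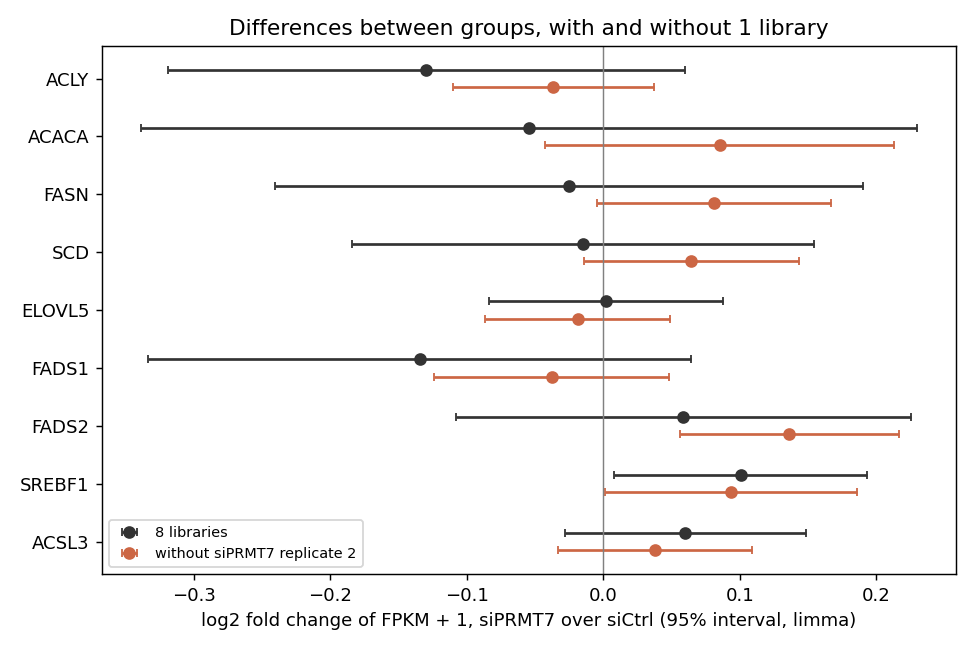
Log2 fold change of FPKM + 1 (horizontal axis, siPRMT7 over siCtrl) for the 9 members tested, with 95% intervals from limma, over 8 libraries (black) and without siPRMT7 replicate 2 (orange). Without that library ACACA, FASN and SCD move from below to above 0, the interval of FADS2 runs from 0.06 to 0.22, and SREBF1 is at 0.10 and 0.09.

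A single library, siPRMT7 replicate 2, held the lowest value of all 8 for ACLY, ACACA, FASN, SCD, FADS1 and FADS2, and the highest for ELOVL5, SREBF1 and ACSL3. It was lowest for 27.1% and highest for 29.6% of all genes tested (56.7% in all), so it was often extreme beyond the members too. ACACA stood at 61.1% of the mean of the other 3 siPRMT7 libraries, FASN at 73.9%, FADS1 at 74.97%, ACLY at 76.6%, SCD at 79.8% and FADS2 at 80.2%. ELOVL5 stood at 106.03%, ACSL3 at 106.5% and SREBF1 at 102.3%.

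In this library the level of genes also went with their length. Its median log2 difference from the other siPRMT7 libraries was 0.06 for genes up to 1000 bases and 0.18 for those over 1000 and up to 2000. It was 0.02 for genes over 4000 and up to 6000, the range of ACLY and SCD. For those over 6000 and up to 10000 it was -0.06, and for the 1284 genes over 10000 it was -0.18. The 6 low members are 5217 (ACLY), 5362 (SCD), 9364 (FASN), 10230 (FADS1), 11026 (FADS2) and 13008 (ACACA) bases long. Among genes of the same length range, 2.98% had a difference as low as that of ACLY or lower, 5.07% for FASN, 5.19% for SCD, 7.87% for ACACA, 19.6% for FADS1 and 30.5% for FADS2. ACSL3 (7240 bases) and SREBF1 (8030 bases) lay in the same range of length as FASN and were not low. The part of gene length in the low values was not tested. With each library's trend on length and GC content removed, the log2 fold change was -0.12 for ACLY, -0.04 for FASN, -0.07 for FADS1, 0.10 for FADS2, 0.03 for ACACA and 0.00297 for SCD, and 0 of 9 members passed. Of the 3 that were not low, ELOVL5 was then at -0.00828, ACSL3 at 0.11 (unadjusted p = 0.011, adjusted p = 0.276 in limma) and SREBF1 at 0.09 (unadjusted p = 0.118). The unadjusted p of FADS2 was 0.0318.

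**Figure D3:**
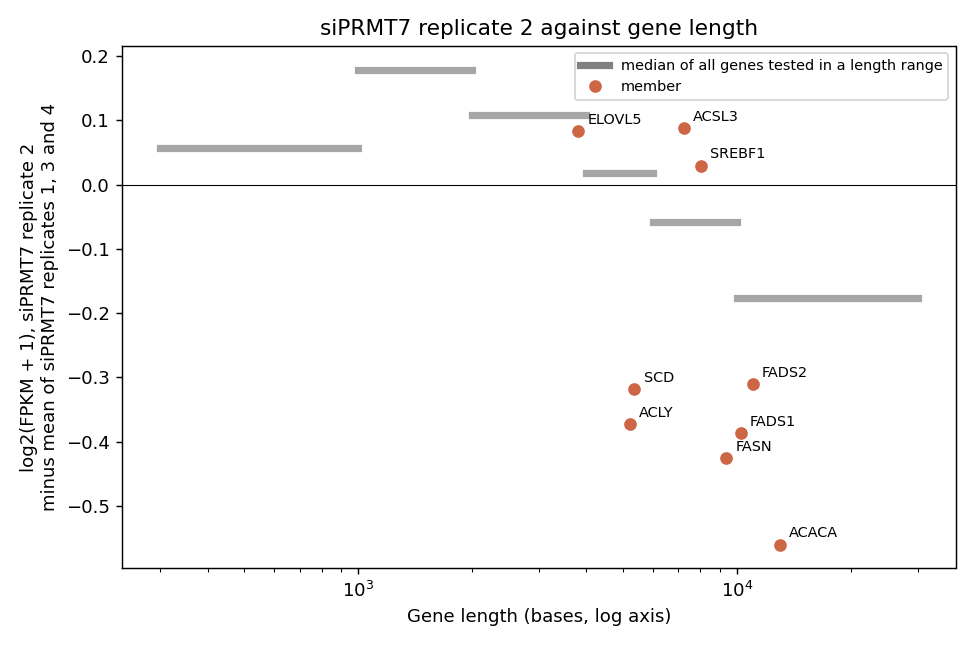
Difference in log2(FPKM + 1) between siPRMT7 replicate 2 and the mean of the other 3 siPRMT7 libraries (vertical axis) against gene length in bases (horizontal log axis) for the 9 members tested. Grey bars are medians of all genes tested in a length range, where the first and last range are open. The bars are at 0.06 up to 1000 bases, highest at 0.18 from 1000 to 2000, and then fall to -0.18. ACLY, SCD, FASN, FADS1, FADS2 and ACACA lie below their bars, ELOVL5 just below its bar, and ACSL3 and SREBF1 above theirs.

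Ratios between members within a library were compared because a shift of the same size in both genes cancels. A shift that goes with gene length, as in siPRMT7 replicate 2, need not cancel between genes of different length. The ratios were chosen after the values of the members had been seen. Each is written with the gene relatively higher in siPRMT7 libraries on top, so every ratio is higher there by this choice. Of the 36 ratios between the 9 members tested, 9 (25.0%) did not overlap between groups, against 7.74% of all pairs of genes tested. There were 11 of 36 without siPRMT7 replicate 2, against 11.2% of all pairs. The 36 ratios share 9 genes and are not independent. None passed when adjusted over the 36 (adjusted p = 0.114 for each of the 9, exact permutation p = 0.0286, the smallest that 4 against 4 allow). With only 9 ratios at that smallest p none could pass, so this adjustment cannot decide about them. FADS1 or ACLY was the relatively lower gene in 7 of the 9.

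The ratio of FADS2 to FADS1, the desaturases that act in turn on one chain, was 2.16, 2.39, 2.30 and 2.32 in siCtrl and 2.58, 2.78, 2.62 and 2.60 in siPRMT7 replicates 1 to 4. All 4 siPRMT7 libraries exceeded all siCtrl libraries, with replicate 2 highest. The mean ratio was 15.2% higher (2.295 ± 0.0966 against 2.64 ± 0.0916, SD, n = 4 each), a log2 difference of 0.20 that ran from 0.18 to 0.22 when each library was left out. Their counting error is at most 2.73% per library.

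The ratio of FADS2 to SCD was 0.825, 0.832, 0.839 and 0.830 in siCtrl and 0.875, 0.879, 0.873 and 0.877 in siPRMT7 replicates 1 to 4. Its mean was 5.38% higher, and its spread within groups (0.697% and 0.293% of the mean) was below the counting error of up to 2.29% per library. The groups also separated for SCD to FADS1 (9.29% higher), FASN to FADS1 (8.499% higher) and FADS2 to ACLY (14.4% higher). ACSL3 to ELOVL5 was 4.26% higher. SREBF1 to FADS1, SREBF1 to ACLY and ACSL3 to ACLY were 20.4%, 19.4% and 15.8% higher, and there siPRMT7 replicate 2 lay far above the other 3. Without it their log2 differences were 0.14, 0.14 and 0.08, in place of 0.26, 0.24 and 0.20.

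**Figure D4:**
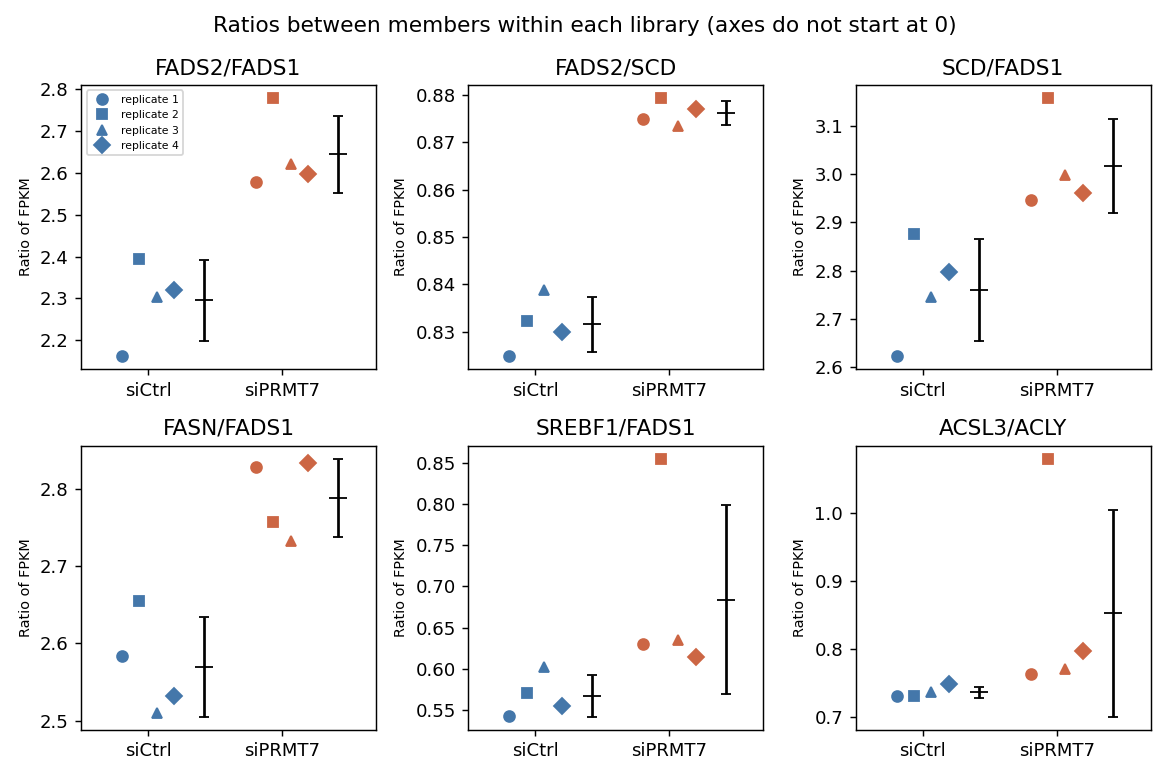
Ratio of FPKM values within each library (vertical axes, which do not start at 0) for 6 pairs of members, in siCtrl (blue) and siPRMT7 (orange), with marker shapes for replicate numbers and black bars for mean and SD of 4 libraries. FADS2 to FADS1 lies between 2.16 and 2.39 in siCtrl and between 2.58 and 2.78 in siPRMT7 libraries, and siPRMT7 replicate 2 stands far above the rest for SREBF1 to FADS1 and ACSL3 to ACLY.

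Among the paralogues of the members named here, ELOVL1 had the highest level in PC3 cells. ACACB, the mitochondrial carboxylase, had 2.67 ± 0.104 FPKM in siCtrl, against 4.49 ± 0.148 FPKM for ACACA. SCD5 had 3.32 ± 0.265 FPKM, against 44.2 ± 1.41 FPKM for SCD. ELOVL1, which lengthens very long saturated chains, had 54.6 ± 1.28 FPKM, above ELOVL5, and ELOVL7 had 0.0710 ± 0.0106 FPKM. Of the other long-chain synthetases ACSL4 had 17.8 ± 1.19 FPKM and ACSL1 had 5.07 ± 0.255 FPKM (SD, n = 4 for each). These genes were named as paralogues, outside the rule that takes the 3 smallest p-values of each list.

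Among 103 further genes of lipid metabolism in 7 lists, 87 were tested and 0 passed in limma. At an unadjusted p under 0.05 there were 12, 3 higher and 9 lower (13.8%, against 13.2% of all genes tested), and 14 with voom. That count was 5 without siCtrl replicate 4, 7 without siCtrl replicate 3 or siPRMT7 replicate 4, and 6 with a replicate block. Without siPRMT7 replicate 1 it was 17, 10 of them higher, and with the length and GC trend removed 10, 6 of them higher. Neither the count nor its split held, and the share over all genes tested moved too. That share was 8.79% without siCtrl replicate 4 and 12.3% with the block. It was 12.02% without siCtrl replicate 3, 12.4% without siPRMT7 replicate 4 and 14.4% with voom. It was 20.8% without siPRMT7 replicate 1 and 11.7% with the trend removed. The median log2 fold change of the 87 was 0.00603, with 46 positive and 41 negative. In the control of SREBP, 18 of 19 genes were tested, 8 positive and 10 negative, with a median of -0.00951. INSIG1, which holds SREBP in the endoplasmic reticulum and is itself a target of it, had 16.4, 16.2, 15.7 and 15.3 FPKM in siCtrl and 17.1, 18.3, 18.2 and 18.1 FPKM in siPRMT7 replicates 1 to 4. Its groups did not overlap, and its log2 fold change was 0.16 (limma adjusted p = 0.202). MBTPS2, the protease of the second cut of SREBP, had a log2 fold change of -0.17, and NFYA, a subunit of the CCAAT-binding factor NF-Y, -0.13 (limma adjusted p = 0.276 for each), and the groups of NFYA did not overlap. Among the 87, groups did not overlap for 1 gene higher and 5 lower, against 4.14% and 4.43% of all genes tested.

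The elongation and desaturation partners had 17 of 20 genes tested, 9 positive and 8 negative, with a median of 0.00328. ELOVL4, an elongase of very long chains, averaged 3.36 ± 0.253 FPKM in siCtrl against 2.73 ± 0.208 in siPRMT7 (SD, n = 4 each), a log2 fold change of -0.22 (limma adjusted p = 0.2503). HACD3, a dehydratase of the elongation cycle, had 15.1 ± 0.151 and 13.9 ± 0.369 FPKM (-0.11, limma adjusted p = 0.286). Both were lower in all 4 siPRMT7 libraries than in any siCtrl library, as was HACD2, another dehydratase (15.1 ± 0.627 and 14.02 ± 0.281 FPKM, limma adjusted p = 0.356), named after its values were seen. They are 3 of the 17 genes tested in the list, and 4.43% of all genes tested separated in that direction. FADS3 had 7.62 ± 0.977 and 9.03 ± 0.467 FPKM (0.22, limma adjusted p = 0.3101), with overlap.

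Genes that supply carbon and NADPH (10 tested, median 0.04), other acyl-CoA synthetases and binding proteins (9 of 15 tested, median 0.05) and regulators of enzyme activity (9 of 11 tested, median 0.00483) had 0 genes past the threshold. In the first, citrate synthase (CS) had a log2 fold change of -0.09, the pentose phosphate enzyme PGD -0.11 and the citrate carrier SLC25A1 0.11. In the second, SLC27A4 had -0.12, ACSL4 -0.13 and ACOT7 0.11. In the third, PRKAA1 and PRKAA2, catalytic subunits of the kinase AMPK that restrains ACACA, had -0.10 and -0.14, and MID1IP1, which promotes polymerization of acetyl-CoA carboxylase, had 0.10. For PRKAA1 the highest siPRMT7 value was below the lowest siCtrl value, as for 4.43% of all genes tested.

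Lists downstream of the members also had 0 calls. Glycerolipid synthesis and lipid droplet genes (11 of 13 tested) had a median of 0.00648, with AGPAT2 at 0.20, DGAT2 at 0.13 and DGAT1 at 0.0952. Fatty acid oxidation genes (13 of 15 tested) had a median of -0.00083, with ACADVL at 0.15, ECHS1 at 0.11 and HADH at -0.08. The smallest limma adjusted p in these lists was 0.342, for ACADVL.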

How the data were processed

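The authors deposited FPKM values for 58735 genes in 8 libraries. The tools cutadapt 2.5, HISAT2 2.1.0 and featureCounts 1.6.3 are listed in the submitters' processing notes, with a mouse build, but all 58735 identifiers are human and match GENCODE release 29 (GRCh38) in start, end and strand. FPKM times gene length came out as whole fragments for 100% of values above 0 (tolerance 0.01 fragments). The library size behind each FPKM column was proportional to its median-ratio size factor, so the deposited values were already scaled between libraries.

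The 13436 genes that reached 1 FPKM in 4 or more libraries were tested as log2(FPKM + 1) with limma 3.58.1 (R 4.3.3), with a variance trend, two-sided and with Benjamini-Hochberg adjustment at 0.05. This scale understates changes of low genes. Single values were tested by exact permutation (scipy 1.17.1). Groups come from the sample titles. Members and lists were chosen with earlier results of these data known. All 10 members, PRMT7 and the 3 smallest p-values of each of 7 lists were named. Other filters, pseudocounts and scales, library weights, voom, a replicate block and leaving out each library were tried. Counting errors cover counting only.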

Additional observations from a re-analysis of the deposited data

Results flagged for a closer look

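In siPRMT7 replicate 2, 3 members lay far from the other 3 siPRMT7 libraries: SCD at 36.9 FPKM, FADS1 at 11.7 FPKM and FADS2 at 32.4 FPKM, each with a gap of over 0.829 of the range of the group, Dixon's 95% critical value for 4 samples. These are 3 of 22 groups of gene values examined, all in 1 library that was lowest or highest for 56.7% of all genes tested. The groups are therefore not independent, and the 1 in 20 that chance marks among independent groups is no measure for them. In the ratios the same library was far above the others for ACSL3 to ACLY (1.08), SREBF1 to ACLY (0.367) and SREBF1 to FADS1 (0.855). Of gene values and ratios together, 6 of 40 groups were marked.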

How the results depend on the processing

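In each of the 18 alternatives 0 members and 0 of the pathway genes passed, and the median of the members ran from -0.05 to 0.06 when 1 library was left out. ACLY, FADS1, FADS2, SREBF1 and ACSL3 kept their direction in all 18, with adjusted p from 0.197 to 0.934, but not their size. With every library brought to the same FPKM total (the TPM scale), FADS2 was 0.0185, ACSL3 0.0203 and SREBF1 0.0633 (unadjusted p = 0.177), and with library weights ACLY was -0.0645, FADS1 -0.0588 and FADS2 0.124. Directions turned for 4 members, none of them called. ACACA was 0.0311 with library weights and 0.0328 with the length and GC trend removed, an alternative chosen after the data were seen, and ran from -0.125 to 0.0852 over left-out libraries. FASN was 0.0495 with library weights (-0.0754 to 0.0809 over left-out libraries). SCD was 0.0521 with library weights and 0.00297 with the trend removed (-0.0491 to 0.0643). ELOVL5 was -0.0384 on the TPM scale, -0.0514 with quantile normalization, -0.00904 with library weights, -0.00472 with voom and -0.00828 with the trend removed (-0.0187 to 0.0156). The cause was not tested. The median over all genes was -0.04 on the TPM scale, where 38.5% of genes were higher, against 49.5% as reported. On it the PRMT7 difference was -0.557 (exact permutation p = 0.0286), in place of -0.424 FPKM. With a replicate block 0 members and 0 genes in all were called, and SREBF1 had a log2 fold change of 0.10 (adjusted p = 0.450). Correlations of same-numbered deviations were -0.0314, -0.0133, 0.0451 and 0.0613, and those of differently numbered ones ran from -0.122 to 0.131. These values do not show a pairing and cannot exclude one. Over all genes, 58 were called with library weights, 13 with voom, 8 with the trend removed, 5 with no filter, 3 on the TPM scale, 1 each with a pseudocount of 0.1, a filter at 5 FPKM and quantile normalization, and 0 to 2 when 1 library was left out, against 2 as reported. Counting errors of 1.36 to 4.17% limit the 9 members tested.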
